A study of Mus musculus with 12 samples.

Results

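The guanylate-binding proteins are a family of large GTPases, and the members described here are Gbp2, Gbp3, Gbp4, Gbp6, Gbp7, Gbp8 and Gbp9 of the mouse. They were followed through every probe set whose platform annotation gives a member symbol, which found 9 of 45037 probe sets. A probe set is the group of short oligonucleotides on an Affymetrix array that reports 1 transcript. Of the 7 symbols, 6 had a probe set, out of 19324 gene symbols on the array: Gbp2, Gbp6 and Gbp7 had 2 each, Gbp3 and Gbp8 had 1 each, and 1 further probe set is annotated to Gbp8 and Gbp4 together and can be assigned to neither. Gbp9 was not analysed here. The members were chosen by their family name, and the family was selected on the PAX5 values of these arrays, where earlier results had Gbp8 among the genes lowest with PAX5 relative to controls, so all values of the members with PAX5 are given as a description and without a test.

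The 12 one-colour arrays measured total RNA of pre-pro-B cells from C57BL/6 mice that lack EBF1 (Ebf1-/- progenitors), a transcription factor needed for B cell development. All groups share this deletion, culture on OP9 stromal cells with SCF, Flt3L and IL-7, retroviral transduction, and sorting of GFP-positive cells after 2 days. The 4 groups of 3 arrays are EBF1 (Mig-EBF1 virus) and control (MigR1 virus, GFP without a factor) in set 1, and PAX5 (Mig-PAX5 virus) and control (MigR1) in set 2. The arrays address which transcripts differ once either factor is supplied to such cells. Expression came from a viral promoter in cultured cells, and no label ties a replicate to a culture or animal of its own. The p-values therefore describe spread among these arrays, which may be technical.

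Guanylate-binding proteins are among the transcripts most strongly induced by interferons, above all by interferon gamma, which acts through the receptor chains Ifngr1 and Ifngr2, the kinases Jak1 and Jak2, and transcription factors such as Irf1. The proteins bind GTP, assemble on the membranes of vacuoles that hold intracellular bacteria and parasites, and help to break them open and to start inflammasome signalling. In the mouse the genes lie in 2 clusters of close relatives, with Gbp2, Gbp3 and Gbp7 on chromosome 3 and Gbp4, Gbp6, Gbp8 and Gbp9 on chromosome 5 (GRCm38.p6). Because the relatives resemble each other in sequence, a probe set named for 1 member can also bind transcripts of another, and the suffix x in a probe set name marks probes known to match more than 1 transcript.

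Promoters are shown for the members on chromosome 3, the ones with a promoter sequence in the sources used here. Interferon-inducible genes often carry short response elements in their promoters. Each window runs from 250 bases before to 50 bases after a transcript start, 5′ to 3′, as given by RefSeq on GRCm38.p6. Capitals mark every match, on either strand, to the interferon-stimulated response element core (GAAA, any 2 bases, GAAA) or to the gamma-activated sequence (TTC, any 3 bases, GAA).

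Gbp7, chr3:142530086-142530385, plus strand: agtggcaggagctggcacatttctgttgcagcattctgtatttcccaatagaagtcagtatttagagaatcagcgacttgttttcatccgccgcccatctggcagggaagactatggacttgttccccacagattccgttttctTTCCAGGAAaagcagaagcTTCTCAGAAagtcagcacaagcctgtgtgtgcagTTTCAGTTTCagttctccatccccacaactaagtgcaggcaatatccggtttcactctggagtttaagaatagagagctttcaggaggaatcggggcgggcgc
Gbp3, chr3:142559794-142560093, plus strand: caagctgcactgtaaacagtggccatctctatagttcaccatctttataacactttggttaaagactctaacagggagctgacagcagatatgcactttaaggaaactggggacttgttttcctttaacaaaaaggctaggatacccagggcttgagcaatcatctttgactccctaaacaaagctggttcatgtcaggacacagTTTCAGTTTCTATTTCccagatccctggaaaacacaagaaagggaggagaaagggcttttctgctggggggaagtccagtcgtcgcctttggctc
Gbp2, chr3:142620413-142620712, plus strand: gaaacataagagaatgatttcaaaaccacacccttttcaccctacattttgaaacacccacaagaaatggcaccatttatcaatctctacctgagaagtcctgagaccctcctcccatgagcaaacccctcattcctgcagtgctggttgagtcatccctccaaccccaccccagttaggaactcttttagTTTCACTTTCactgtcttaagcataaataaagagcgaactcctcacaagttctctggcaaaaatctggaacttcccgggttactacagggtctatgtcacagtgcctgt

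The response element core occurred in all 3 windows, always as its reverse complement. The match began 53 bases before the start in Gbp7, 59 bases before it in Gbp2, and 45 bases before it in Gbp3, where a second match that overlaps the first began 39 bases before the start. Among all 32851 promoter windows of this length, 3.44% held the core. The gamma-activated sequence occurred only in the window of Gbp7 among these 3, at 106 and 87 bases before the start, and 8.30% of all windows held it. The composite element of ETS and interferon regulatory factors (GGAA, any 2 bases, GAAA, in 2.72% of all windows) and the EBF1 core (TCCC, any 2 bases, GGGA, in 0.904%) were searched too and had no match in the windows of the members. A second annotated start of Gbp3 had no match to any of the 4 motifs. A match is a run of letters and does not show that a factor binds there. Gbp4, Gbp6, Gbp8 and Gbp9 are not shown.

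Across the series, median intensity ran from 55.1 to 60.6 on the arrays of set 1 and from 65.3 to 68.9 in set 2. Between the sets, controls bearing the same number were almost identical, with a robust SD of their log2 difference of 0.039 to 0.094 over 12889 bright probe sets, while controls with different numbers gave 0.287 to 0.374. PAX5 arrays 2 and 3 gave 0.077, and the remaining pairs inside a group 0.211 to 0.359. Arrays this alike may be 1 hybridisation summarised again, and each such pair was counted as 1 sample, which leaves 3 EBF1, 2 PAX5 and 3 control samples. As to the labelled cell type, none of 9 markers of early lymphoid progenitors was under an intensity of 20 on all arrays, and their summed intensity was 18059 to 21488 in EBF1 cells against 19333 to 23229 in controls of set 1, and 19386 to 20843 in PAX5 cells against 19144 to 22984 in controls of set 2. Ptprc and Ikzf1 were the brightest of this list on every array, so the sums rest largely on them. With EBF1, Ly6d of this list rose (796 to 4077 in EBF1 cells against 87.7 to 118 in controls, log2 change 4.17, limma adjusted p = 0.026), while Flt3, Kit and Cd34 had changes of -0.87, -1.02 and -1.46 that did not pass. With PAX5 no gene of this list passed, and changes ran from -0.95 for Il7r and -0.94 for Flt3 to 0.54 for Cd34. The 7 measured markers of later B cells, Blnk and Pax5 among them, summed to 10914 to 26686 in EBF1 cells against 319 to 403 in controls. In PAX5 cells they summed to 4921 to 7341 against 608 to 687 in controls. Most of the PAX5 sum was Blnk (3351 to 4877 in PAX5 cells against 29.8 to 116 in controls). Most of the rest was Pax5, the supplied factor (891 to 1849 against 7.98 to 12.8). Only Blnk and Pax5 of this list passed limma's test with PAX5. Cd79b was higher on all PAX5 arrays (83.3 to 92.2 against 16.7 to 23.3) and did not pass. Cd79a, Ms4a1, Vpreb1 and Igll1 had PAX5 changes of 0.41, 0.26, 0.20 and -0.17. Markers of other cell types were detected as well. The 9 measured macrophage and monocyte markers summed to 431 to 758 in EBF1 cells against 733 to 1339 in controls, and to 1529 to 1929 in PAX5 cells against 1322 to 1858 in controls. The 8 measured T and natural killer markers summed to 279 to 413 in EBF1 cells against 460 to 547 in controls, and to 729 to 1013 in PAX5 cells against 504 to 593 in controls, with Cd4 under 20 on all arrays. Klrd1 moved most in this list (-1.70 with EBF1, 1.27 with PAX5). Cd3d, Cd3e, Cd3g, Cd4 and Cd8a had changes from -0.19 to 0.41 with EBF1 and from -0.21 to 0.29 with PAX5. No gene of this list passed limma's test. The 5 dendritic markers summed to 1683 to 5288 in EBF1 cells against 4019 to 6663 in controls, and to 4341 to 5433 in PAX5 cells against 4006 to 6474 in controls, with Xcr1 under 20 throughout. Most of this sum was Ccr9 (3841 to 6381 in controls of set 1). Itgax of this list rose with PAX5 (202 to 259 in PAX5 cells against 42.8 to 88.9 in controls, log2 change 1.56, limma adjusted p = 0.023). The 10 stromal markers summed to 797 to 11725 in EBF1 cells, the highest being array 3, against 557 to 2181 in controls, and to 748 to 1734 in PAX5 cells against 737 to 2543 in controls. The part of these cells in the values below was not tested. In sorted bulk cells, fewer cells of a type and less RNA per cell cannot be told apart.

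Gbp8, a member of the chromosome 5 cluster, was the member with the lowest values in PAX5 cells relative to controls. Its probe set read 38.6, 41.0 and 37.7 on PAX5 arrays 1, 2 and 3, against 603, 505 and 234 on the control arrays of set 2. All PAX5 arrays lay far below the lowest control, and they lay close together while the controls spread widely. The mean was 39.0 ± 0.513 in PAX5 cells (SD, n = 2, arrays 2 and 3 averaged first) and 448 ± 191 in controls (SD, n = 3). On the scale of log2(intensity + 16), used for every change in this text, the PAX5 change was -2.98 (SE 0.41). The added constant keeps dim values from dominating and shrinks changes of dim probe sets, so that the Gbp8 change was -3.29 with a constant of 4 and -2.23 with a constant of 64.

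Gbp8 read 266, 284 and 137 on EBF1 arrays 1, 2 and 3, against 557, 481 and 201 on the control arrays of set 1. The groups overlapped, since control array 3 was below EBF1 arrays 1 and 2. Arrays of equal number deviated together in these groups, and within each of the 3 numbered pairs the EBF1 array was the lower, by -1.03, -0.73 and -0.50 in log2. The EBF1 change was -0.75 (SE 0.37, 95% interval -1.59 to 0.08) and did not pass limma's test over all probe sets, with adjusted p = 0.55 (adjusted p = 0.32 with the replicate number as a block in the 6 arrays of set 1, and 0.67 in those arrays without it). It was -0.44 without EBF1 array 3, -0.48 without control array 1 and -1.19 without control array 3, so its size rests on those arrays. The controls of the EBF1 and PAX5 comparisons are nearly identical arrays, counted as shared, and their values are given side by side and not as independent results. The probe set that Gbp8 shares with Gbp4 was dim everywhere, at 15.1, 7.84 and 12 in EBF1 cells against 4.57, 16 and 10.1 in controls, and at 5.00, 1 and 4.23 in PAX5 cells against 1.61, 3.30 and 1 in controls. Many probe sets sit at exactly 1 (2.50% to 3.05% per array), few lie below it, and no order is read from values this low, so it neither shows nor lacks the pattern of the other Gbp8 probe set.

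**Figure D1:**
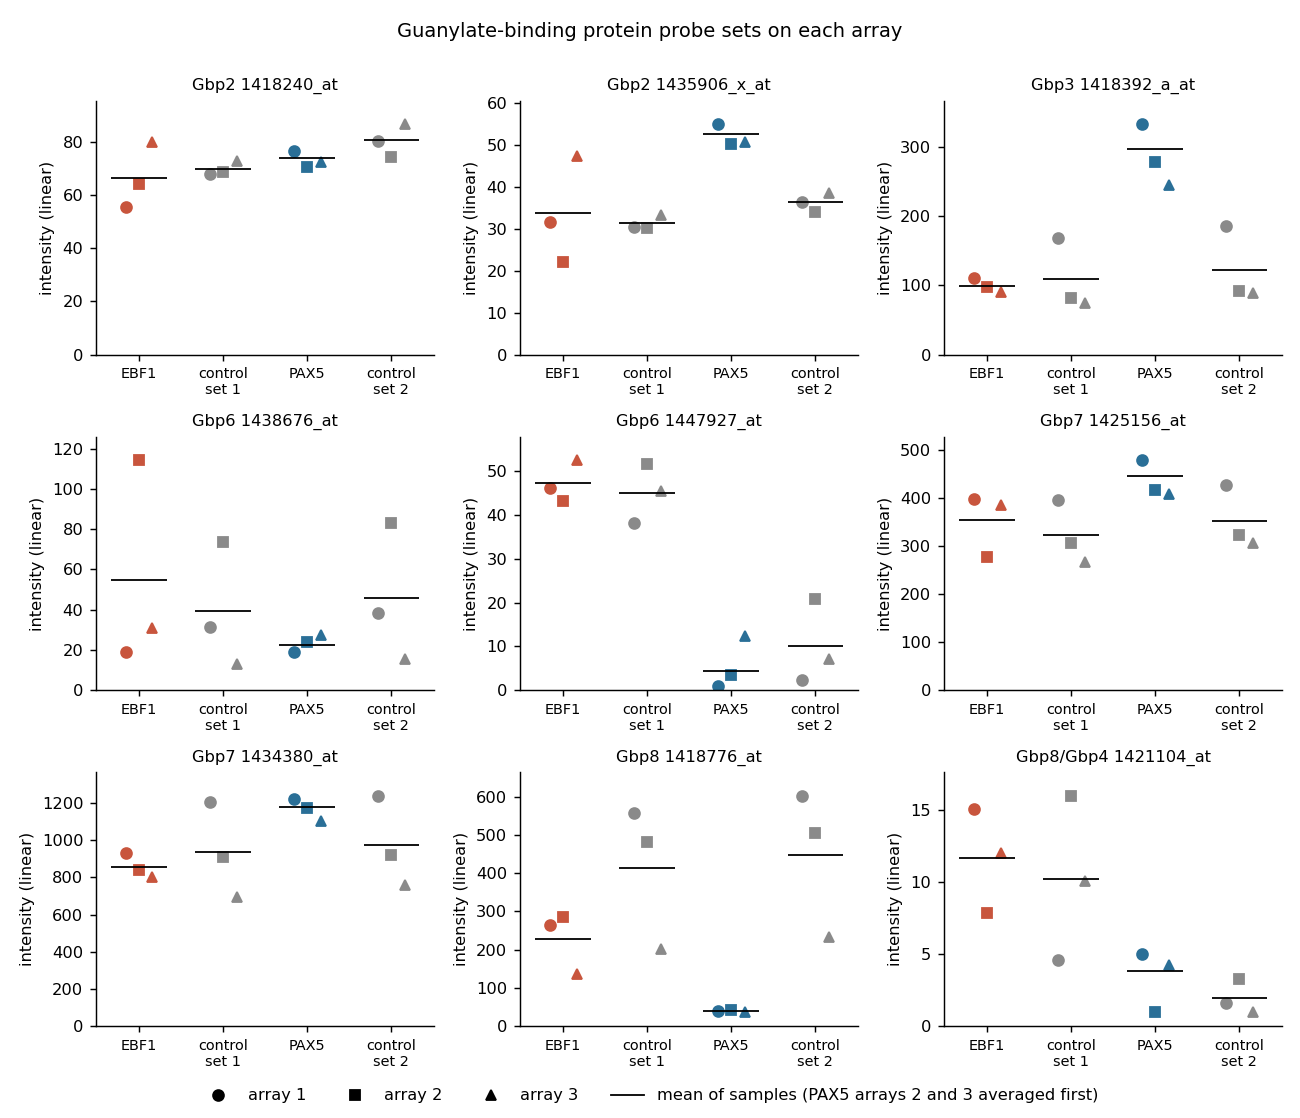
Intensity (linear scale) of the 9 member probe sets on each of the 12 arrays, with 1 point per array, a marker shape per array number and a line at the mean of the samples. Gbp8 probe set 1418776_at reads 37.7 to 41.0 on the PAX5 arrays and 234 to 603 on their controls, while Gbp3 is higher on all PAX5 arrays than on their controls.

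Gbp3, on chromosome 3, moved the other way with PAX5. It read 334, 278 and 245 on PAX5 arrays 1, 2 and 3, against 186, 91.8 and 89.5 on the controls of set 2, so that every PAX5 array was above every control. The mean was 298 ± 50.7 in PAX5 cells (SD, n = 2) and 122 ± 55.1 in controls (SD, n = 3), a log2 change of 1.24 (SE 0.28). In EBF1 cells Gbp3 read 111, 97.2 and 90.8, against 169, 82.4 and 74.6 in controls of set 1. The groups overlapped, with the first control array standing above the rest in both sets. The EBF1 change was -0.03 (95% interval -0.60 to 0.54, limma adjusted p = 0.99), and 0.29 without control array 1.

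Gbp7 had values in every group well above this, and neither of its 2 probe sets separated the groups. Probe set 1434380_at read 933, 843 and 801 in EBF1 cells against 1205, 911 and 697 in controls of set 1, and 1224, 1172 and 1103 in PAX5 cells against 1241, 924 and 760 in controls of set 2. Both comparisons overlapped, and the controls spread more widely than either transduced group. The EBF1 change was -0.09 (95% interval -0.51 to 0.32, limma adjusted p = 0.92) and the PAX5 change 0.30 (SE 0.20). Probe set 1425156_at read 399, 278 and 386 in EBF1 cells against 396, 306 and 267 in controls, and 480, 416 and 408 in PAX5 cells against 428, 323 and 307 in controls. Its changes were 0.13 with EBF1 (95% interval -0.29 to 0.55, adjusted p = 0.89 by limma) and 0.34 with PAX5 (SE 0.21), again with overlapping groups.

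Gbp2, which is recruited to the vacuoles of intracellular parasites, gave values that differed between its probe sets. Probe set 1418240_at read 55.5, 64.3 and 80.2 in EBF1 cells against 67.9, 68.7 and 73.0 in controls, and 76.7, 70.7 and 72.5 in PAX5 cells against 80.6, 74.6 and 86.9 in controls. Groups overlapped in both comparisons, with changes of -0.06 for EBF1 (95% interval -0.37 to 0.24, limma adjusted p = 0.93) and -0.10 for PAX5 (SE 0.15). Probe set 1435906_x_at, whose probes may match other transcripts, read 31.6, 22.2 and 47.4 in EBF1 cells against 30.4, 30.2 and 33.4 in controls, and 55.1, 50.2 and 50.7 in PAX5 cells against 36.5, 34.0 and 38.6 in controls. Here the PAX5 arrays were all above the controls (log2 change 0.39, SE 0.20), while the EBF1 arrays lay on both sides of theirs (0.04, 95% interval -0.36 to 0.44, limma adjusted p = 0.97). The 2 Gbp2 probe sets thus disagree about PAX5, and which transcripts each measured was not tested.

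Gbp6, on chromosome 5, varied with the array number in its brighter probe set, which was highest on array 2 in EBF1 cells and in controls. That probe set, 1438676_at, read 18.8, 114 and 31.1 on EBF1 arrays 1, 2 and 3, against 31.5, 73.7 and 13.0 on control arrays 1, 2 and 3 of set 1. In PAX5 cells it read 19.1, 24.1 and 27.7 against 38.3, 83.2 and 15.7 in controls of set 2, within the range of the controls. The changes were 0.26 with EBF1 (95% interval -0.92 to 1.44, limma adjusted p = 0.92) and -0.53 with PAX5 (SE 0.58). The EBF1 value turned to -0.30 without EBF1 array 2 and to -0.13 without control array 3. The other Gbp6 probe set, 1447927_at, read 46.0, 43.1 and 52.5 in EBF1 cells against 38.2, 51.5 and 45.3 in controls, and 1, 3.60 and 12.3 in PAX5 cells against 2.37, 20.8 and 7.22 in controls. Control arrays of the same number stood 0.87 to 1.56 higher in log2 in set 1 than in set 2 for this probe set, so the deposited values of the sets are not on 1 scale there and only comparisons within a set can be read. Its changes were 0.05 with EBF1 (limma adjusted p = 0.96) and -0.32 with PAX5.

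Over the 9 member probe sets, 0 passed limma's test with EBF1 at an adjusted p under 0.05 over all 45037 probe sets, and 0 had an unadjusted p under 0.05, as 9.97% of all probe sets had. Of all probe sets 0.0977% passed with EBF1 (44 probe sets, against 18 in the 6 arrays of set 1 alone and 7 in those with the replicate number as a block). The median EBF1 change of the members was 0.04, beside 0.02 over all probe sets, and in 0 of 9 were the EBF1 and control arrays separate, against 13.2% of all probe sets. With PAX5 the count past the same threshold was 1 (Gbp8, on the lower side), which follows from the choice of the family on these values, and nothing is read from it. The share was 0.0511% of all probe sets on that side and 0.515% in either direction. The count rests on single arrays. With any 1 array left out the Gbp8 change ran from -3.37 to -2.72. This range comes from the arrays on which the family was selected and is a description only. The count was 0 without control array 2, where the Gbp8 change was -2.84. Without control array 1 the Gbp8 change was -2.72, and Gbp8 was not past the threshold either. The 1 probe set counted there was Gbp3, on the higher side. Without PAX5 array 1, which leaves a single PAX5 sample, the Gbp8 change was -2.97. The members' PAX5 changes ran from -2.98 to 1.24, with a median of 0.14 beside -0.01 over all probe sets. The PAX5 arrays were all lower than their controls for 1 member probe set (8.77% of all probe sets) and all higher for 2 (8.14%), with 16.9% of all probe sets separate in either direction.

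**Figure D2:**
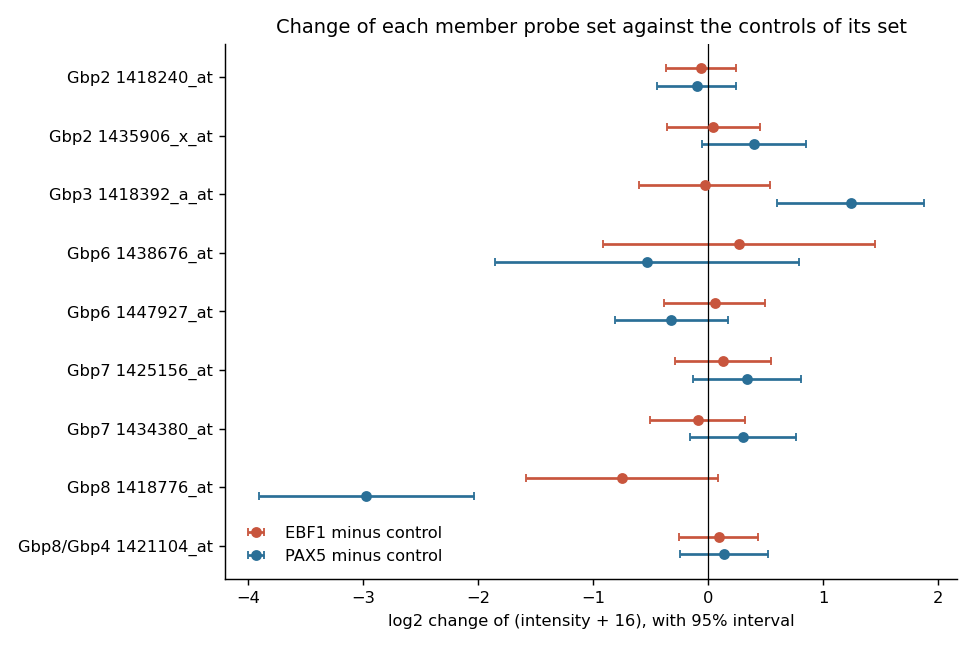
Log2 change of (intensity + 16) against the controls of the same set for the 9 member probe sets, with EBF1 in red above PAX5 in blue and bars for the 95% interval from limma. All EBF1 intervals include 0, and the PAX5 values run from -2.98 for Gbp8 to 1.24 for Gbp3.

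Some other interferon-induced genes, a minority of those listed, shared the array pattern of Gbp6. The genes in this paragraph were picked after their values were seen. Igtp, an immunity-related GTPase that acts with guanylate-binding proteins on vacuoles, read 448, 817 and 400 in EBF1 cells against 597, 809 and 287 in controls of set 1. Irgm2, a regulator of such GTPases, read 156, 364 and 186 in EBF1 cells against 259, 383 and 145 in controls. In both, array 2 was the highest of the EBF1 and of the control arrays. Usp18, an enzyme that dampens interferon signalling, read 59.6, 636 and 163 in EBF1 cells against 69.5, 718 and 60.6 in controls, the widest spread of those shown. Irf7, a transcription factor of the type I interferon response, read 79.4, 268 and 123 in EBF1 cells against 85.0, 243 and 89.1 in controls. Mx1, an antiviral GTPase, read 55.9, 185 and 52.0 in EBF1 cells against 110, 146 and 46.5 in controls. In PAX5 cells Usp18 read 142, 168 and 167, against 80.5, 736 and 72.7 in controls of set 2, so that no PAX5 array reached the level of control array 2. Among the 77 measured genes of the interferon, GTPase and partner lists, 18 (23.4%) had array 2 as the highest of both groups of set 1, against 17.3% of all 18193 genes. For array 1 the share was 10.4%, against 15.4% of all genes, and for array 3 it was 3.90%, against 12%. Gbp6 was the member that did so for array 2, Gbp3 and both Gbp7 probe sets for array 1, and both Gbp2 probe sets for array 3.

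**Figure D3:**
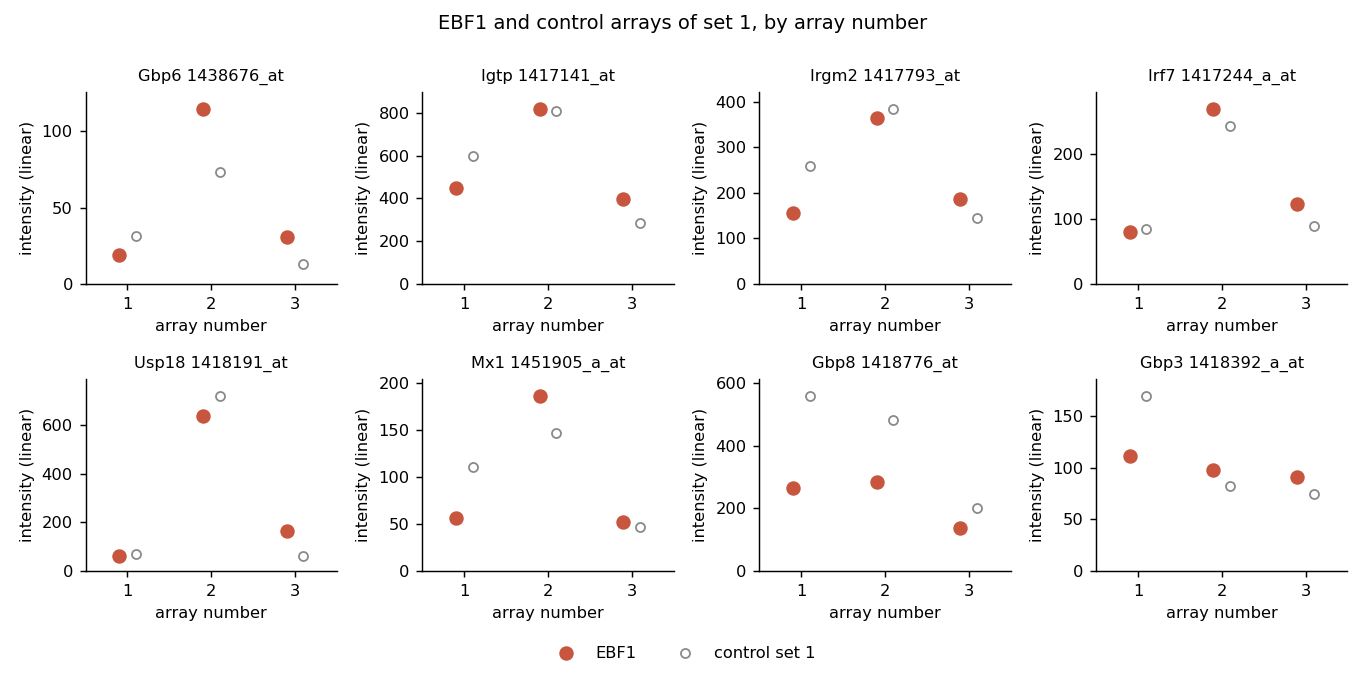
Intensity (linear scale) on the EBF1 (red, filled) and control (grey, open) arrays of set 1 against array number, for 3 members and 5 other interferon-related genes. Gbp6, Igtp, Irgm2, Irf7, Usp18 and Mx1 are highest on array 2 in both groups, while for Gbp8 the EBF1 array is lower at each number.

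The pathway that induces these proteins was followed gene by gene with the brightest probe set of each, 77 measured of 90 listed. With EBF1, 0 of 77 passed limma's test over all probe sets, and 0.143% of all genes passed. An unadjusted p under 0.05 was found for 14 of the 77 with EBF1, and for 11.2% of all genes. With PAX5, 1 rose and 0 fell, and 0.704% of all genes passed in either direction, 0.66% on the higher side. An unadjusted p under 0.05 was found for 14 of the 77 with PAX5, and for 9.05% of all genes, and the unadjusted counts of the lists below stand against these shares. The median log2 change was -0.08 with EBF1, beside 0.01 over all genes, and 0.04 with PAX5, beside -0.01 over all genes. The gene that rose was Ciita, the transactivator of MHC class II genes and an interferon gamma target in many cells, whose PAX5 values were known from earlier results. It read 309, 272 and 271 in PAX5 cells against 46.2, 35.8 and 44.2 in controls (log2 change 2.40, SE 0.14, limma adjusted p = 0.00021), and all 3 of its probe sets passed. With EBF1 it read 53.5, 48.4 and 57.7 against 53.0, 40.6 and 48.9 in controls (0.13, limma adjusted p = 0.81).

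Among ligands, 0 of 7 measured genes passed limma's test in either comparison, with 1 at unadjusted p under 0.05 in each. Ifng, which encodes interferon gamma and was picked after its values were seen, was dim, at 45.4, 27.7 and 42.2 in PAX5 cells against 19.8, 18.8 and 11.5 in controls (0.78, SE 0.18, limma adjusted p = 0.17). The PAX5 arrays were all above the controls at these low intensities, and the change did not pass. Of 7 receptor and kinase genes, 0 passed in either comparison, with 4 at unadjusted p under 0.05 for EBF1 and 1 for PAX5 by limma. Ifngr1, the ligand-binding chain, read 436, 478 and 505 in EBF1 cells against 647, 539 and 682 in controls (-0.38, SE 0.13, limma adjusted p = 0.39), and 571, 626 and 618 in PAX5 cells against 695, 562 and 754 in controls (-0.16, adjusted p = 0.86). Ifngr2, the signalling chain, read 293, 283 and 243 in EBF1 cells against 125, 177 and 165 in controls (0.76, SE 0.15, adjusted p = 0.14), and 292, 326 and 325 in PAX5 cells against 144, 194 and 186 in controls (0.78, SE 0.16, adjusted p = 0.12). Every EBF1 and PAX5 array was above every control of its set for Ifngr2, but neither change passed, and the second Ifngr2 probe set stood at 0.41 with EBF1 and 0.45 with PAX5.

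Of 10 transcription factors, 1 rose with PAX5 (Ciita) and 0 passed with EBF1, with 2 at unadjusted p under 0.05 for PAX5 and 1 for EBF1 by limma. Irf1, which drives guanylate-binding protein genes, read 659, 608 and 763 in EBF1 cells against 1424, 814 and 690 in controls (-0.46, SE 0.24, limma adjusted p = 0.59), and 996, 831 and 797 in PAX5 cells against 1444, 825 and 742 in controls (-0.09, adjusted p = 0.97). Groups overlapped in both, with control array 1 the highest. Of 8 inhibitors, 0 passed in either comparison by limma, with 3 at unadjusted p under 0.05 in each. Of 9 immunity-related GTPases and Mx proteins, 0 passed in either comparison, with 0 at unadjusted p under 0.05 for EBF1 and 2 for PAX5. Irgm1, a regulatory member, read 895, 1504 and 1063 in EBF1 cells against 1246, 1206 and 810 in controls (0.08, adjusted p = 0.95 by limma), and 1611, 1227 and 1214 in PAX5 cells against 945, 844 and 660 in controls (0.78, SE 0.25, adjusted p = 0.39). Igtp changed by 0.02 with EBF1 (adjusted p = 0.99) and by 0.13 with PAX5 (adjusted p = 0.98). Of 19 other interferon gamma targets 0 passed with either factor, with 3 at unadjusted p under 0.05 in each, and of 16 inflammasome and conjugation partners 0 passed, with 2 for EBF1 and 1 for PAX5. The remaining guanylate-binding protein with a probe set, Gbp2b, read 32.3, 42.8 and 37.5 in EBF1 cells against 47.0, 34.3 and 44.9 in controls (-0.12, limma adjusted p = 0.86), and 26.2, 26.2 and 45.6 in PAX5 cells against 54.4, 39.4 and 54.3 in controls (-0.49, SE 0.16, adjusted p = 0.41).

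**Figure D4:**
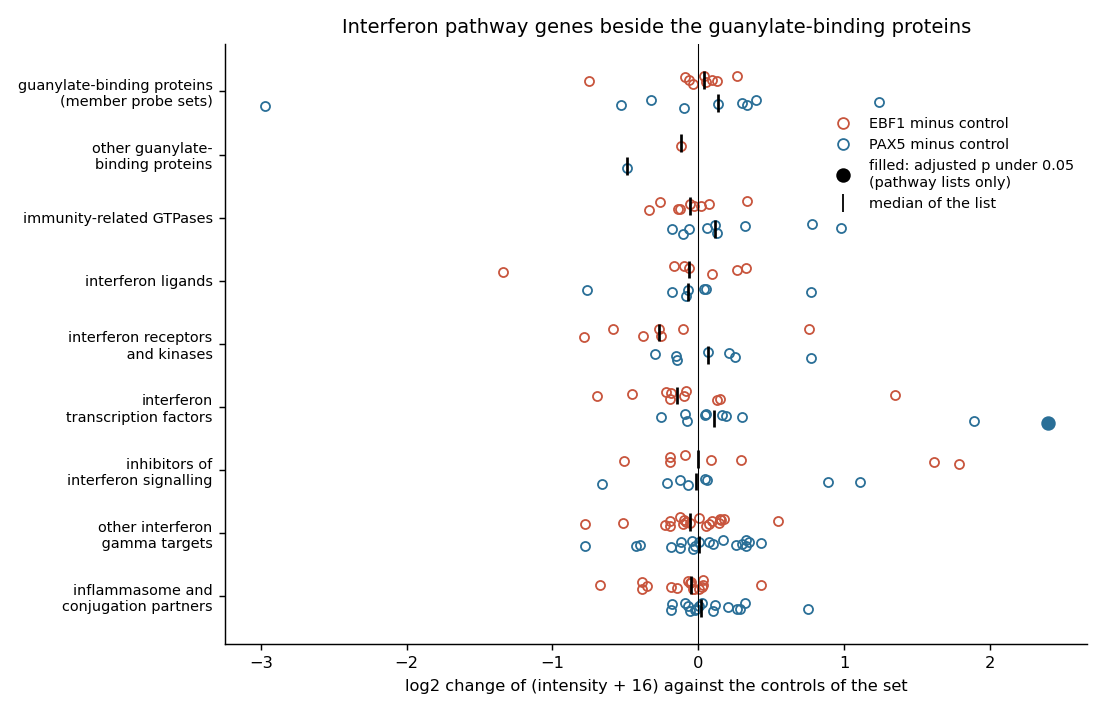
Log2 change of (intensity + 16) with EBF1 (red) and PAX5 (blue) for the member probe sets and for each measured gene of 8 interferon-related lists, with a bar at the median of each list. Filled points, drawn for the 8 lists and not for the members, passed limma's test, and Ciita at 2.40 with PAX5 is the one such point. The lowest PAX5 point, Gbp8 at -2.98, is a value on which the family was selected.

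The genes beside the 2 clusters did not share the values of Gbp8 and Gbp3. On chromosome 5, the nearest measured genes before Gbp8 were Thoc2l, Zfp33b and Abcg3, with PAX5 changes of -0.13, -0.03 and 0.02, and the nearest after Gbp6 were Gm26519, 4930542N06Rik and Lrrc8c, with 0.32, 0.00 and -0.17. On chromosome 3, Unc5c, Bmpr1b and Pdlim5 before Gbp7 stood at -0.15, -0.27 and 0.24, and Kyat3, Gtf2b and Pkn2 after Gbp2 at -0.02, 0.06 and 0.04. None of these 12 neighbours passed limma's test with PAX5 (adjusted p from 0.66 to 1.0) or with EBF1 (adjusted p from 0.30 to 0.99), where Lrrc8c, a volume-regulated anion channel subunit, had the highest change at 1.12 and Pdlim5 the next at 0.82. Within the chromosome 3 cluster, Gbp3 at 1.24 lay between Gbp7 at 0.30 and Gbp2b at -0.49, and Gbp2 stood at -0.10.

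**Figure D5:**
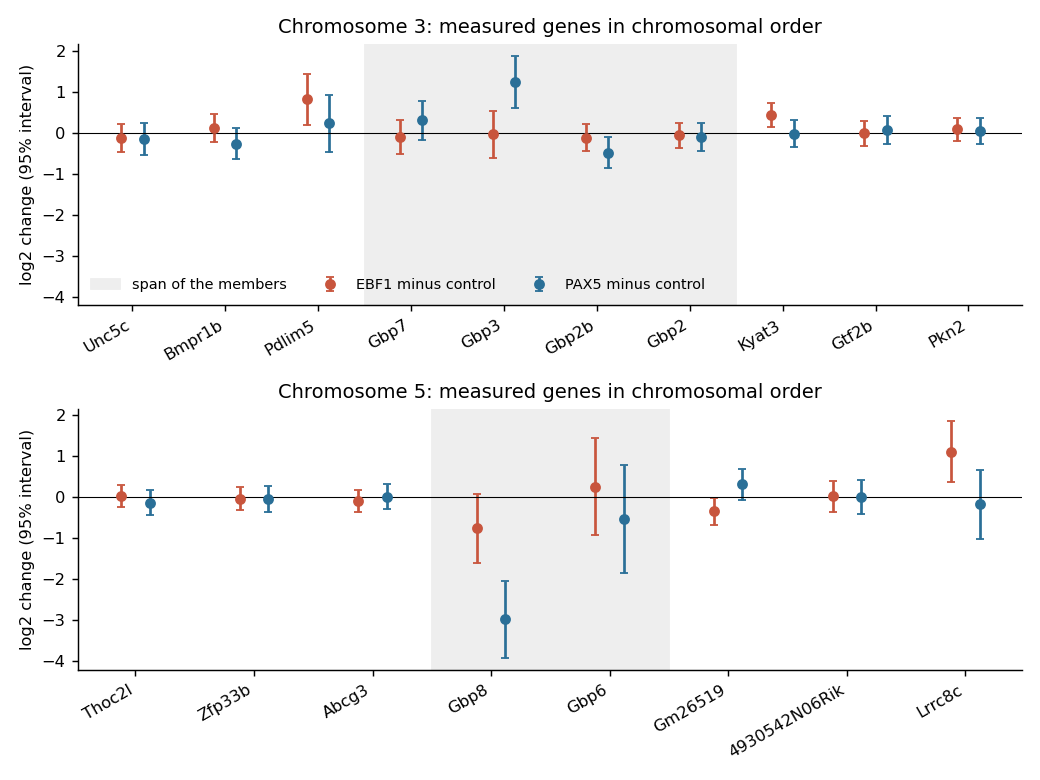
Log2 change of (intensity + 16) with its 95% interval for the measured genes of each cluster and the 3 nearest on each side, in chromosomal order, with EBF1 in red left of PAX5 in blue and shading over the span of the members. With PAX5, Gbp8 is at -2.98 and Gbp3 at 1.24. Among the chromosome 3 genes, the PAX5 interval of Gbp3 overlaps those of Gbp7 and Pdlim5.

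The genes whose pattern over the 8 samples was most like each member's were taken from 8991 genes with mean log2 over 7, by Pearson's correlation, as a description. For Gbp8 they were Sytl1 (r = 0.98), Akap17b (0.97) and Itpk1 (0.96), with PAX5 changes of -0.90, -0.81 and -0.53, each smaller in size than that of Gbp8. For Gbp3 they were Tec, a kinase of lymphocyte receptor signalling (0.99), Vps33a (0.99) and Filip1l (0.98), with PAX5 changes of 1.08, 0.43 and 1.13. The samples compared include the PAX5 samples, so the search favours genes that move with PAX5 as Gbp8 and Gbp3 do. Nothing is read from the direction of those changes. For Gbp6 they were Rassf7 (0.97), Abhd11 (0.97) and Ifih1, an interferon-inducible sensor of viral RNA (0.97). For Gbp7 they were Pink1, Snap23 and Zfp397 (all 0.98), and for Gbp2 Zfp280d (0.93), Phf12 (0.93) and Uhrf2 (0.92). Correlations of this size were found for each member searched, over only 8 samples.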

How the data were processed

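Affymetrix one-colour arrays measured biotin-labelled cRNA, per the labels' protocols. Each deposited value is a linear-scale intensity of 1 probe set. The sources used here do not give the authors' summarisation or normalization. Of 45037 probe sets, 34945 carry 1 gene symbol in the platform annotation, 932 several and 9160 none. Precision is limited by how few arrays there are.

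Values were used as log2(intensity + 16). The offset between the control sets was removed per probe set, then equal-numbered controls and PAX5 arrays 2 and 3 were each averaged. A fit of 3 group means on all probe sets (R 4.3.3 with limma 3.58.1, default settings of lmFit and eBayes, two-sided, 5 residual and 3.68 prior degrees of freedom) gave each change, with Benjamini-Hochberg adjustment over all probe sets at a threshold of 0.05. The script was tested on simulated data. Tables were read with the data.table package (version 1.17.8) and pandas 2.3.3, and figures drawn with matplotlib 3.10.9 in Python 3.11.15.

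Members, lists and tests were chosen with earlier results of these data known. The naming rule takes all member probe sets, passing genes of the interferon lists (up to 4 highest and 4 lowest), Irf1, Ifngr1, Ifngr2, Irgm1, Igtp and Ciita, the 3 genes most like each member and the 3 nearest measured genes on each side of a cluster. List genes are represented by their brightest probe set. Deviations of EBF1 and control arrays of equal number correlated at 0.35, 0.61 and 0.39 over bright probe sets, so numbers were taken to pair them. In the main fit PAX5 arrays 2 and 3 count as 1 sample and form no pairs of their own. The main fit has no block. There were 18 alternatives. Some genes of the lists are not reported here.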

Additional observations from a re-analysis of the deposited data

How the results depend on the processing

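With EBF1, 0 member probe sets passed limma's test under any of the 18 alternatives, with 5 of the 9 tested under the filter on dim probe sets and under 1 probe set per gene, and all 9 otherwise. Several EBF1 changes near 0 turned their sign when an array was left out in turn. Their ranges were -0.18 to 0.035 for Gbp2 probe set 1418240_at, -0.15 to 0.22 for Gbp2 probe set 1435906_x_at (-0.010 with quantile normalization within a set), -0.22 to 0.29 for Gbp3, -0.30 to 0.69 for Gbp6 probe set 1438676_at, -0.028 to 0.13 for Gbp6 probe set 1447927_at, -0.28 to 0.10 for Gbp7 probe set 1434380_at, and -0.072 to 0.25 for the probe set of Gbp8 and Gbp4. No PAX5 change of a member turned its sign in these alternatives, which reuse the arrays on which the family was selected. The Gbp8 change with PAX5 ran from -3.37 to -2.23, and that of Gbp3 was 1.55 without control array 1. The number of member probe sets past the threshold with PAX5, 1 in the fit reported, follows from the choice of the family and supports nothing. It was 0 with a constant of 64 and 0 to 1 leaving out an array in turn. The 1 without control array 1 was Gbp3 and not Gbp8.

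Over all probe sets, 44 passed with EBF1 and 232 with PAX5. With all 12 arrays counted separately 295 passed with EBF1 and 638 with PAX5, and in the 6 arrays of a set 18 passed with EBF1 and 378 with PAX5. A constant of 64 gave 14 for EBF1, and a constant of 4 gave 153 for PAX5. Adding the replicate block in those 6 arrays gave 7 for EBF1 and 257 for PAX5 and changed no call of a member. Leaving out an array in turn gave 18 to 597 for EBF1, highest without EBF1 array 3, and 50 to 263 for PAX5, lowest without PAX5 array 1. The causes were not tested. Dim values near 1 limit what can be read for Gbp6 probe set 1447927_at and for that of Gbp8 and Gbp4.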
